A study of Mus musculus with 4 samples.

Results

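The proteasome genes of mouse blastocysts were described at the mRNA and translation levels. Members were all gene symbols listed in both assays that begin with Psma, Psmb, Psmc, Psmd, or Psme followed by a digit, which gave 45 of the 20714 symbols in both assays. They fell into the alpha ring (8 Psma symbols), the beta ring (11 Psmb), the ATPases (7 Psmc), the lid and base (14 Psmd), and the activators (5 Psme). The rule takes genes by name and uses no measured value.

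The 26S proteasome is the large protease that degrades proteins tagged with ubiquitin. Its 20S core is a barrel of stacked rings, with outer alpha rings that gate the channel and inner beta rings that hold the proteolytic sites. The 19S particle caps the core, where the lid removes ubiquitin and the ATPases of the base unfold the substrate. Cells exposed to interferon, and immune cells, replace the catalytic beta subunits with the immunoproteasome subunits Psmb8, Psmb9, and Psmb10, which favour peptides for presentation by MHC class I.

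All libraries came from 1 kind of embryo. Wild-type, untreated blastocysts derived from 4-week-old C57BL/6J females mated with PWK/PhJ males (the strain field of the labels gives C57BL/6N x PWK instead). The embryos were taken at the 8-cell stage, grown to blastocysts in KSOM medium in vitro, and freed of the zona pellucida. RNA-seq by Smart-seq2 measured polyA RNA and Ribo-seq measured ribosome-protected fragments (RPF) from total RNA in lysates with cycloheximide, which holds ribosomes on mRNA. There were 2 replicate libraries per assay, and the labels do not say whether replicates are separate pools of embryos, so p-values measure only the spread between these libraries, which may be technical. Levels are FPKM, which are fragments scaled to the length of the sequence and to the mapped fragments of the library, so that genes can be compared per length. Whole blastocysts were measured, so fewer cells of a type and less RNA per cell cannot be told apart.

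The deposited FPKM carry no counts, but low values fell on steps that implied about 5464912 and 5180677 fragments in the RNA-seq replicates and 534795 and 485289 in the Ribo-seq replicates. For a sequence of 1000 bases, 3 fragments were worth 0.686 and 0.724 FPKM of mRNA and 7.01 and 7.73 FPKM of RPF. Footprint numbers below are derived from these steps, and their 95% exact Poisson intervals cover counting error only. The 45 members together held about 4881 and 4286 footprints. All 6 trophectoderm markers (Cdx2, Krt8, Krt18, Gata3, Tfap2c, and Eomes) were at 1 FPKM or more in all 4 libraries. The inner cell mass markers Nanog and Pou5f1 were present in both assays, whereas Sox2 and Fgf4 were under 1 FPKM of mRNA. In RPF, Sox2 had 37.1 and 35.4 FPKM and Fgf4 had 18.4 and 5.08 FPKM. All 6 markers of cumulus and granulosa cells were listed at 0 in all 4 libraries, as were 4 of 6 immune cell markers (Ptprc, Cd3e, and Itgam among them) and 3 of 5 oocyte markers. Prm2, 1 of 4 sperm markers, had 33.7 FPKM of RPF in replicate 2 and no reading above 0 elsewhere.

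The genes of the 20S core were among the most abundant in both assays. The 14 constitutive core genes (Psma1 to Psma7 and Psmb1 to Psmb7) reached a median mRNA of 361 FPKM in replicate 1 and 402 FPKM in replicate 2, and a median RPF of 468 and 473 FPKM. The percentile of each among all genes was between 97.7 and 99.2 for mRNA and between 96.1 and 98.3 for RPF. All 45 symbols made up 1.37% and 1.50% of the summed FPKM in RNA-seq and 0.635% and 0.615% in Ribo-seq.

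**Figure D1:**
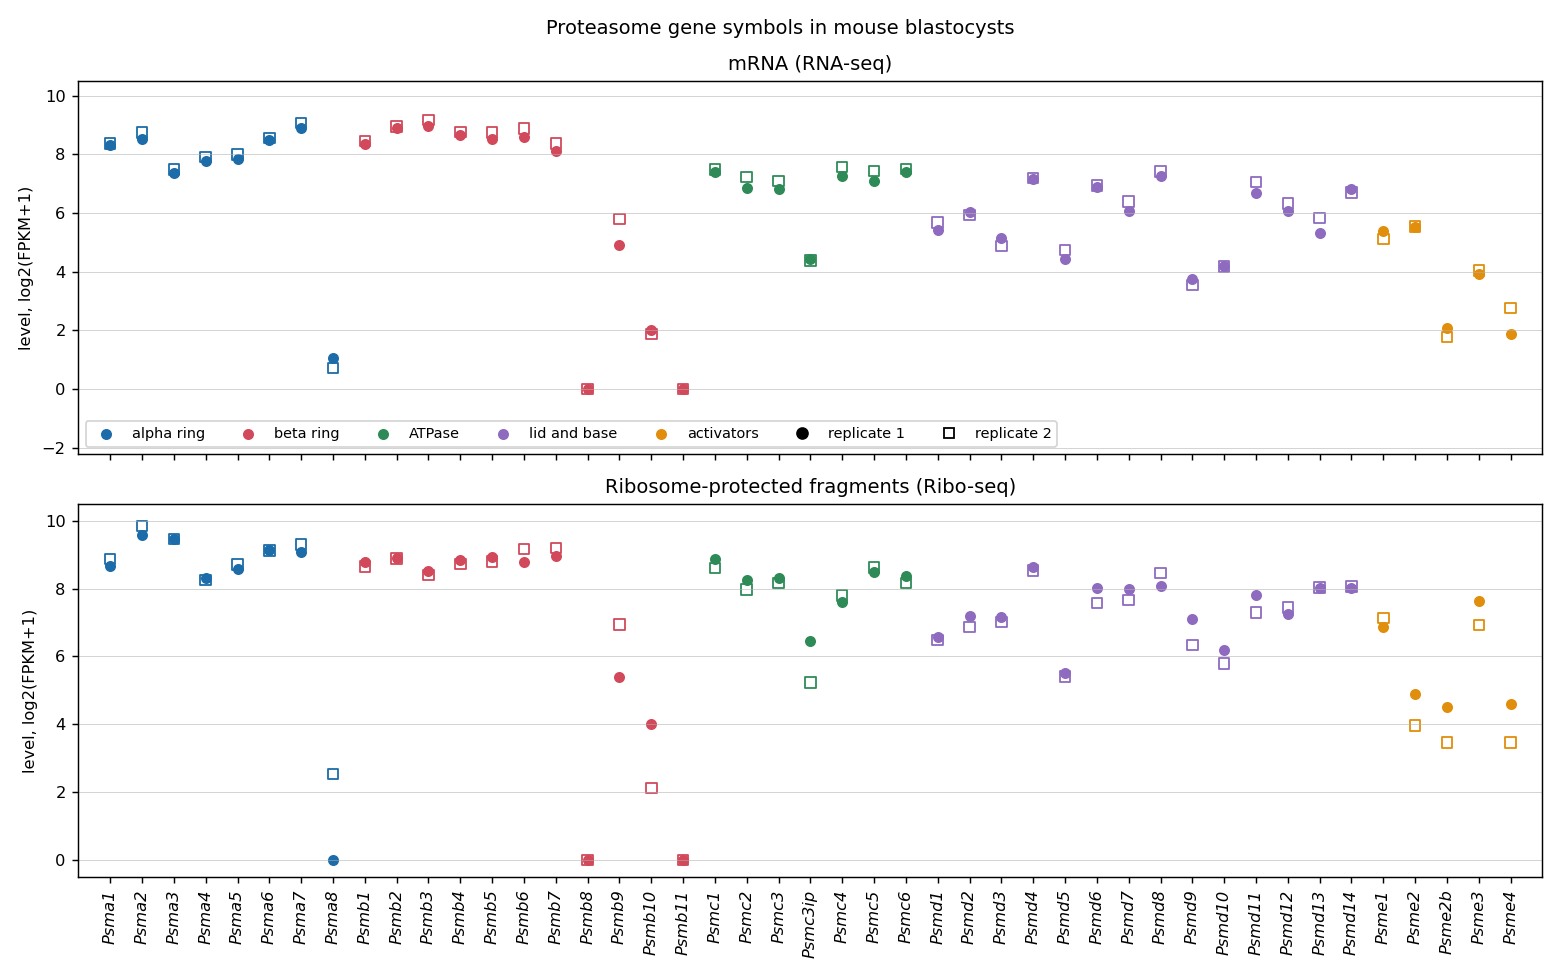
Level of each of the 45 proteasome symbols as log2(FPKM+1), mRNA above and RPF below, with replicate 1 as filled circles, replicate 2 as open squares, and colours for the 5 classes. The 14 constitutive core genes sit near the top in both assays, while Psmb8 and Psmb11 are at 0 in all 4 libraries.

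Below the core, the medians of the 19S groups followed a graded order at the mRNA level. The 6 ATPases Psmc1 to Psmc6, the ring that pulls substrates into the core, had a median mRNA of 144 and 175 FPKM. The 8 lid genes had a median of 84.7 and 93.0 FPKM, and the 3 non-ATPase base genes Psmd1, Psmd2, and Psmd4 had 64.4 and 59.9 FPKM. The 3 chaperones that assemble the base, Psmd5, Psmd9, and Psmd10, which are not part of the finished particle, had 17.5 and 17.1 FPKM. The median of the core was thus 2.51 and 2.30 times that of the ATPases and 4.26 and 4.32 times that of the lid. The core hardly overlapped the 19S groups, taken by name, but the ATPases, the lid, and the non-ATPase base genes overlapped one another. Of the 6 ATPases, 2 and 4 exceeded the highest of the other 11 19S genes. In each RNA-seq replicate 13 of 14 core genes exceeded the highest ATPase, and all 14 exceeded the highest of the other 11 19S genes. The exception to the former was Psma3, with 165 and 179 FPKM. The lid protein Sem1, which the naming rule does not take in, had 671 and 606 FPKM of mRNA, above every core gene.

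At the RPF level the order of the medians was kept, with smaller gaps. The ATPases had a median RPF of 325 and 287 FPKM, the lid 254 and 196 FPKM, the non-ATPase base genes 144 and 116 FPKM, and the chaperones 72.1 and 54.4 FPKM. The median of the core was 1.44 and 1.64 times that of the ATPases and 1.84 and 2.41 times that of the lid. The core and the 19S groups overlapped more than in mRNA. Of the 14 core genes, 7 and 12 exceeded the highest ATPase in replicates 1 and 2, and 11 and 12 exceeded the highest of the other 19S genes taken by name. The ATPases and the lid overlapped in both assays.

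The lid genes also lay closer together in RPF than in mRNA. The SD over the 8 lid genes, on the log2(FPKM+1) scale, was 0.77 and 0.80 for mRNA and 0.36 and 0.47 for RPF. Psmd8 had the highest mean mRNA of the lid and base class (154 and 170 FPKM), with an RPF level of 268 and 353 FPKM. Psmd3 had the lowest mRNA of the lid (34.5 and 28.5 FPKM) and 144 and 129 FPKM of RPF. Psmd14, the deubiquitinase of the lid, had 111 and 103 FPKM of mRNA and 260 and 268 FPKM of RPF. Among the 14 core genes the SD was 0.46 and 0.48 for mRNA and 0.35 and 0.42 for RPF, so that both assays held the core within a narrow range. No test was made of these spreads, because the subunits of a library share its depth.

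The 2 rings of the core changed places between the assays. The 7 constitutive alpha genes had a median mRNA 0.820 and 0.760 times that of the 7 constitutive beta genes, and a median RPF 1.18 and 1.26 times theirs. Psma7 had the highest mRNA of the alpha ring, at 476 and 539 FPKM, with an RPF level of 539 and 632 FPKM. Psma2 had the highest RPF of all members, at 760 and 920 FPKM, and 367 and 430 FPKM of mRNA. In the beta ring, Psmb3 had the highest mRNA of all members, at 502 and 579 FPKM, and one of the lower RPF levels of the core, at 370 and 337 FPKM. Psma3 showed the opposite order, with the lowest mRNA of the core and an RPF level of 712 and 707 FPKM. The rings overlapped in both assays: 0 of 7 alpha genes exceeded the highest beta gene in mRNA, and 4 and 3 of 7 did so in RPF.

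Within the core, the order of the mRNA levels was not that of the RPF levels. The Spearman correlation of mRNA with RPF over the 14 core genes was 0.037 and 0.042 in replicates 1 and 2, while that between replicates was 0.987 for mRNA and 0.851 for RPF. Over the 42 members with a mean of at least 1 FPKM in both assays, mRNA and RPF had a correlation of 0.899 and 0.910. These are descriptions across genes of the same libraries, and genes are not independent replicates. Reads of several core genes can also fall on copies elsewhere in the genome. Shares were taken over the 28-base windows of the coding sequence that occur in the NCBIM37 genome. More than 1 place was found for 84.3% of them in Psmb3, 82.1% in Psma5, 79.2% in Psma3, and 75.3% in Psmb5. The share was 0.667% in Psmb2 and 0% in Psma7 and Psmb4. Windows absent from the genome, taken to span exon junctions, were left out (129 of 579 for Psmb2 and 141 of 720 for Psma7). None were absent for Psmb3 (0 of 591) and Psmb5 (0 of 768), so the shares are not over like sets of windows. For no member did most windows have more than the 20 places that the authors allowed per read, but the share of a read between places can move these levels, and its part in the order was not tested.

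Each immunoproteasome subunit was lower than the constitutive catalytic subunit whose place it takes, in every library. Psmb5 (chymotrypsin-like site, chromosome 14, 55232644 to 55236851 on NCBIM37, the assembly of mm9) had 365 and 430 FPKM of mRNA and 493 and 446 FPKM of RPF. Psmb6 (caspase-like site, chromosome 11, 70338869 to 70341360) had 388 and 470 FPKM of mRNA and 440 and 574 FPKM of RPF. Psmb7 (trypsin-like site, chromosome 2, 38443556 to 38499607) had 275 and 330 FPKM of mRNA and 502 and 586 FPKM of RPF. The replicates of each were close and no level of an immunoproteasome subunit reached this range.

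Psmb8 (chromosome 17, 34334666 to 34338399), which takes the place of Psmb5, was listed at 0 in every library. For its length, 3 fragments would be worth 0.384 and 0.406 FPKM of mRNA and 8.93 and 9.85 FPKM of RPF, so a low RPF level was not detectable at this depth. Psmb10, which takes the place of Psmb7 (chromosome 8, 108459628 to 108462292), had 3.03 and 2.67 FPKM of mRNA and 15.1 and 3.33 FPKM of RPF. The RPF levels rest on 5 footprints (interval 1.62 to 11.7) and 1 footprint (0.0253 to 5.57), and their intervals overlap. Psmb7 was 90.7 and 124 times as high as Psmb10 in mRNA and 33.3 and 176 times as high in RPF.

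Psmb9, which takes the place of Psmb6 (chromosome 17, 34318932 to 34324697), was the only immunoproteasome subunit above 10 FPKM of mRNA. It had 29.4 and 54.5 FPKM of mRNA and 41.0 and 122 FPKM of RPF, with 10 footprints (interval 4.80 to 18.4) in replicate 1 and 27 (17.8 to 39.3) in replicate 2. Replicate 2 was the higher library in both assays. Low as it was beside Psmb6, Psmb9 was not low among all genes, with mRNA percentiles of 91.1 and 94.2 and RPF percentiles of 84.2 and 92.3. Psmb6 was 13.2 and 8.64 times as high in mRNA and 10.8 and 4.71 times as high in RPF. On the log2(FPKM+1) scale, with FPKM averaged over replicates first, Psmb9 minus Psmb6 was -3.33 for mRNA and -2.62 for RPF. Psmb10 minus Psmb7 was -6.30 and -5.74. By library, Psmb9 minus Psmb6 was -3.68 and -3.09 for mRNA and -3.40 and -2.23 for RPF. For Psmb10 minus Psmb7 the values were -6.10 and -6.49 for mRNA and -4.97 and -7.08 for RPF. With 2 libraries per assay, an exact test over libraries cannot pass 0.05, so these are descriptions.

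**Figure D2:**
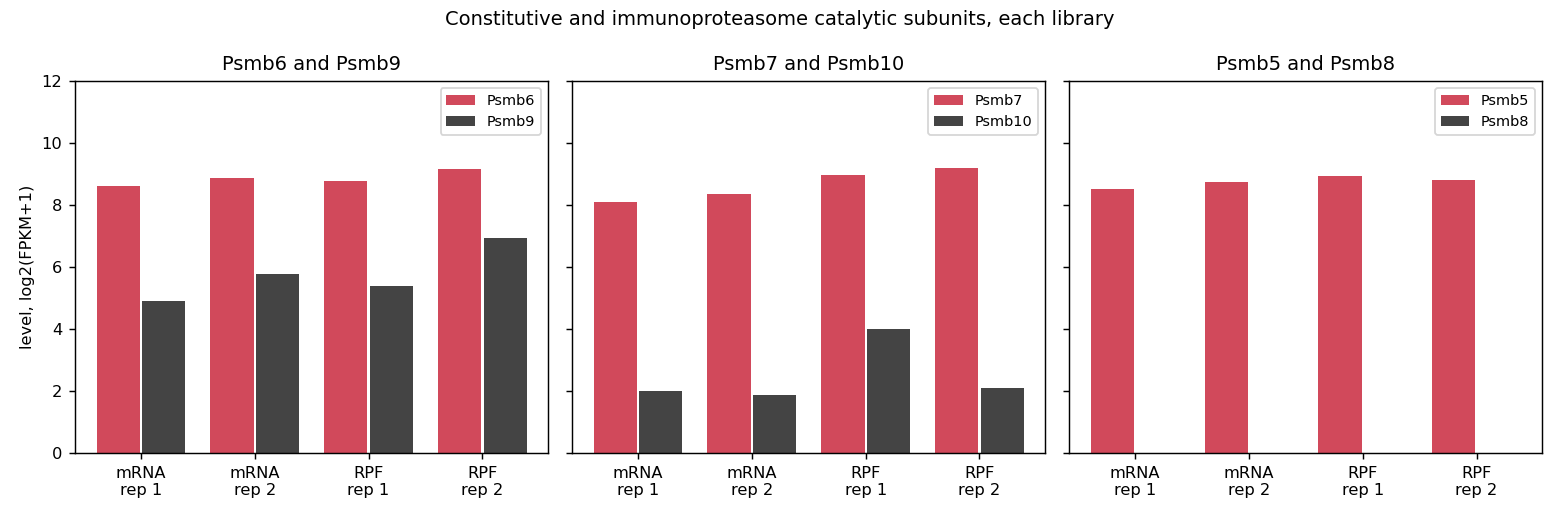
Level as log2(FPKM+1) in each of the 4 libraries for the constitutive catalytic subunits Psmb6, Psmb7, and Psmb5 (red bars) and the immunoproteasome subunits that replace them, Psmb9, Psmb10, and Psmb8 (dark bars). Psmb9 is lower than Psmb6 in every library, Psmb10 is lower still against Psmb7, and Psmb8 has no bar because it is listed at 0.

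Levels were mixed among genes of antigen presentation and the interferon response. Of 12 such genes, 4 had at least 1 FPKM in all 4 libraries, and 5 were high enough to test. Tap1, the peptide transporter gene next to Psmb9, had 2.54 and 5.67 FPKM of mRNA and 1.98 and 6.54 FPKM of RPF. The higher value was in replicate 2 of both assays, but no counting interval was computed for these low levels. B2m, the light chain of MHC class I, had the highest RPF of the list, at 346 and 105 FPKM, and 60.0 and 26.2 FPKM of mRNA, with the higher value in replicate 1. H2-K1 had 8.93 and 6.41 FPKM of mRNA and 38.7 and 38.3 FPKM of RPF. H2-D1 had 17.8 and 18.3 FPKM of mRNA and 25.5 and 32.3 FPKM of RPF. The interferon factor Irf1 was at 0.566 and 0 FPKM of mRNA, and Irf1 and the peptide trimmer Erap1 were listed at 0 for RPF. Cd68 was the highest of the 6 immune cell markers, with 3.10 and 2.18 FPKM of mRNA and 2.40 and 0 FPKM of RPF. The summed mRNA of these 6 markers was 3.31 and 2.40 FPKM, nearly all of it from Cd68. The 4 inner cell mass markers summed to 141 and 57.7 FPKM of mRNA and to 699 and 815 FPKM of RPF. The part of either marker list in the Psmb9 difference between replicates was not tested.

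Several symbols taken in by name are tissue-restricted or are not proteasome subunits. Psma8, the alpha subunit of the testis, had 1.10 and 0.643 FPKM of mRNA and 0 and 4.80 FPKM of RPF, the latter about 1 footprint. Psmb11, the beta subunit of the thymus, was listed at 0 in all 4 libraries. Psmc3ip, a partner of recombinases in meiosis and no ATPase of the proteasome, had 20.5 and 19.8 FPKM of mRNA and 87.2 and 36.6 FPKM of RPF (21 and 8 footprints), the lowest of its class in both assays. It was left out of the medians of the ATPases given above.

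RPF was then compared with mRNA for each gene, to ask whether ribosome occupancy was higher or lower for its mRNA level than that of the median gene. The difference of log2(FPKM+1) between Ribo-seq and RNA-seq was fitted with limma for 8327 genes with a mean of at least 1 FPKM in both assays. The median gene had 2.40 times as much RPF as mRNA in FPKM (1.26 on the log2 scale), and this median was set to 0. A gene was called at an adjusted p (Benjamini-Hochberg) under 0.05 and a difference of at least 1. Of 45 members, 42 were tested, and Psma8, Psmb8, and Psmb11 were too low. Only 1 member was called higher and 3 were called lower, while the same fit called 9.13% of all genes higher and 3.24% lower (12.4% in either direction).

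The member called higher was Psme3, which encodes the PA28 gamma activator of the nucleus. Psme3 (chromosome 11, 101177527 to 101184851) had 14.4 and 15.5 FPKM of mRNA and 200 and 121 FPKM of RPF, with 60 and 33 footprints. Its difference was 2.04 (SE 0.35, limma adjusted p = 0.0425).

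The members called lower were Psme2, Psmb3, and Psmb2. Psme2 (chromosome 14, 56206278 to 56209950), the beta subunit of the interferon-inducible PA28 activator, had 44.7 and 45.9 FPKM of mRNA and 29.0 and 14.6 FPKM of RPF. Its RPF was below its mRNA in FPKM in both replicates, with 8 footprints (interval 3.45 to 15.8) and about 3.67, and the difference was -2.36 (SE 0.40, limma adjusted p = 0.0430). Psmb3 (chromosome 11, 97564713 to 97574814), a beta subunit with no proteolytic site, differed by -1.87 (SE 0.25, adjusted p = 0.0289). Psmb2 (chromosome 4, 126354874 to 126386958), also without one, had 475 and 492 FPKM of mRNA and 479 and 476 FPKM of RPF, a difference of -1.28 (SE 0.23, adjusted p = 0.0466). These values are relative to the median gene. Without that centring limma called 18 members higher and 0 lower.

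The Psme2 value is uncertain because of a near-copy. Psme2b (chromosome 11, 48758856 to 48759692), an intronless copy that RefSeq also lists as Psme2b-ps, shares 80.4% of the 28-base windows of its coding sequence with Psme2. Psme2b had 3.22 and 2.41 FPKM of mRNA and 21.7 and 9.97 FPKM of RPF. The sum of the pair was 47.9 and 48.3 FPKM of mRNA and 50.7 and 24.6 FPKM of RPF, and its difference, computed the same way with no test, was -1.69. How the reads were split between them was not tested.

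The other activators did not pass the threshold. Psme1, the alpha subunit of PA28 (chromosome 14, 56196960 to 56200366), had 41.1 and 33.7 FPKM of mRNA, close to its partner Psme2. Its RPF level was 116 and 139 FPKM, well above that of Psme2 in both replicates, and its difference was 0.49 (limma adjusted p = 0.27). Psme4, the PA200 activator (chromosome 11, 30671726 to 30780361), had 2.72 and 5.81 FPKM of mRNA and 23.1 and 10.0 FPKM of RPF.

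By class, the core lay below the median gene and the 19S particle lay near it. The immunoproteasome subunits Psmb9 and Psmb10 differed by -0.45 (limma adjusted p = 0.66) and -0.14 (adjusted p = 0.90), and a single Ribo-seq library decides both signs. Without Ribo-seq replicate 1 the difference was 0.23 for Psmb9 and -1.18 for Psmb10, which was then called lower, and without Ribo-seq replicate 2 it was -1.38 and 0.65. The median difference was -0.88 over the 14 core genes, -0.08 over the 6 ATPases, -0.04 over the 8 lid genes, and -0.22 over the 3 non-ATPase base genes. Of the core genes, 13 of 14 were below 0, and Psma3 at 0.78 (not called) was the exception. All 7 constitutive beta genes were below 0, with a median of -1.03, against -0.64 for the alpha genes. Of all genes tested 50% were below 0, and 26 of the 42 members were. At an unadjusted p under 0.05 stood 10 of 14 core genes, 1 of 6 ATPases, 2 of 8 lid genes, and 2986 of the 8327 genes. The sign of the core depends on the centring, and without it the median of the core was 0.38. The gaps between classes do not depend on it. The core lay 0.62 to 1.01 below the ATPases, 0.82 to 1.00 below the lid, and the beta genes 0.30 to 0.51 below the alpha genes, over all settings tried. Centring, the filters on low values, the prior variance, and the replicate block cannot move these gaps. The ranges thus come from the pseudocount, quantile normalization, the full coding length, and the libraries left out.

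**Figure D3:**
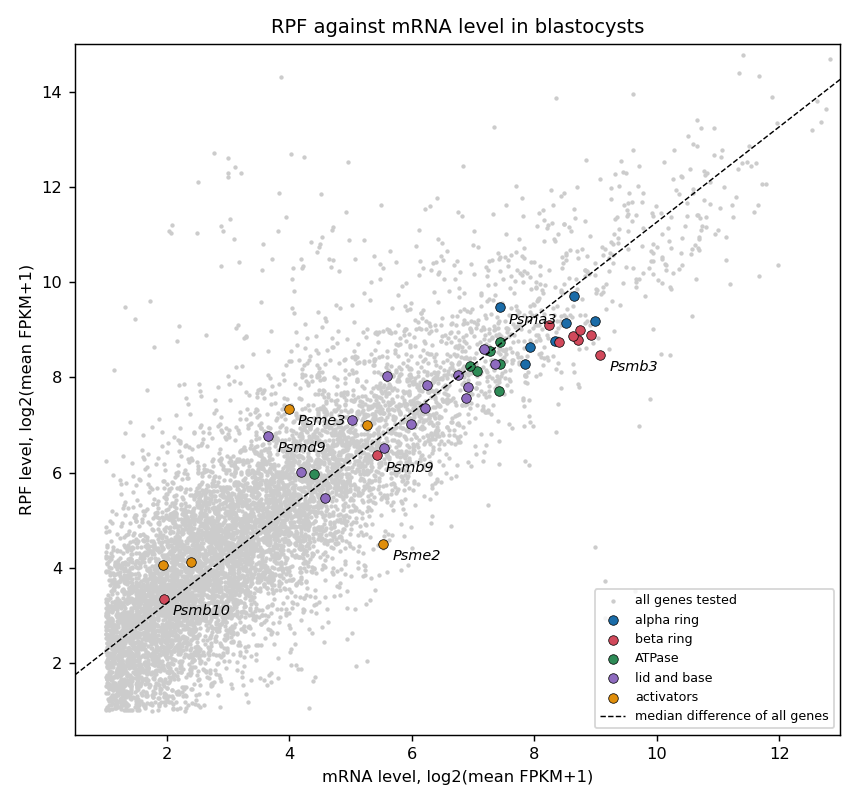
Mean RPF level against mean mRNA level, both log2(FPKM+1), for the 8327 genes tested (grey) and the 42 proteasome symbols among them (coloured by class), with a dashed line at the median difference of 1.26. The core genes lie mostly under the line at its upper right, Psme3 and Psmd9 above it, and Psme2 below it.

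Among the lid, the base, and the base chaperones, no gene was called, and the largest positive differences were those of Psmd9 and Psmd13. Psmd9 (chromosome 5, 123678199 to 123700140), a chaperone of the ATPase ring, had the lowest mRNA of its class, at 12.5 and 10.7 FPKM, and 137 and 79.7 FPKM of RPF (34 and 18 footprints). Its difference was 1.81 (SE 0.36, limma adjusted p = 0.0537). Psmd13, a lid subunit, had 38.9 and 56.1 FPKM of mRNA and 258 and 262 FPKM of RPF, a difference of 1.19 (adjusted p = 0.0754). Psmd10, or gankyrin, had 17.5 and 17.1 FPKM of mRNA and 72.1 and 54.4 FPKM of RPF. Psmd5 had the lowest RPF of the class, at 44.9 and 41.7 FPKM, with 20.5 and 25.6 FPKM of mRNA and a difference of -0.38. The chaperones thus differed in sign among themselves, and none of the 3 was called.

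The ubiquitin receptor Psmd4 had the highest RPF of the lid and base class, at 400 and 369 FPKM, with 142 and 145 FPKM of mRNA. The other non-ATPase base genes, the scaffolds Psmd1 and Psmd2, had 94.1 and 88.3 FPKM and 144 and 116 FPKM of RPF. Psmc1 had the highest mean of the ATPases in both assays, with 170 and 177 FPKM of mRNA and 470 and 391 FPKM of RPF. Psmc4 was the ATPase furthest below the median gene, at -0.98 (limma adjusted p = 0.0870), with the lowest RPF of the 6 (193 and 223 FPKM).

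**Figure D4:**
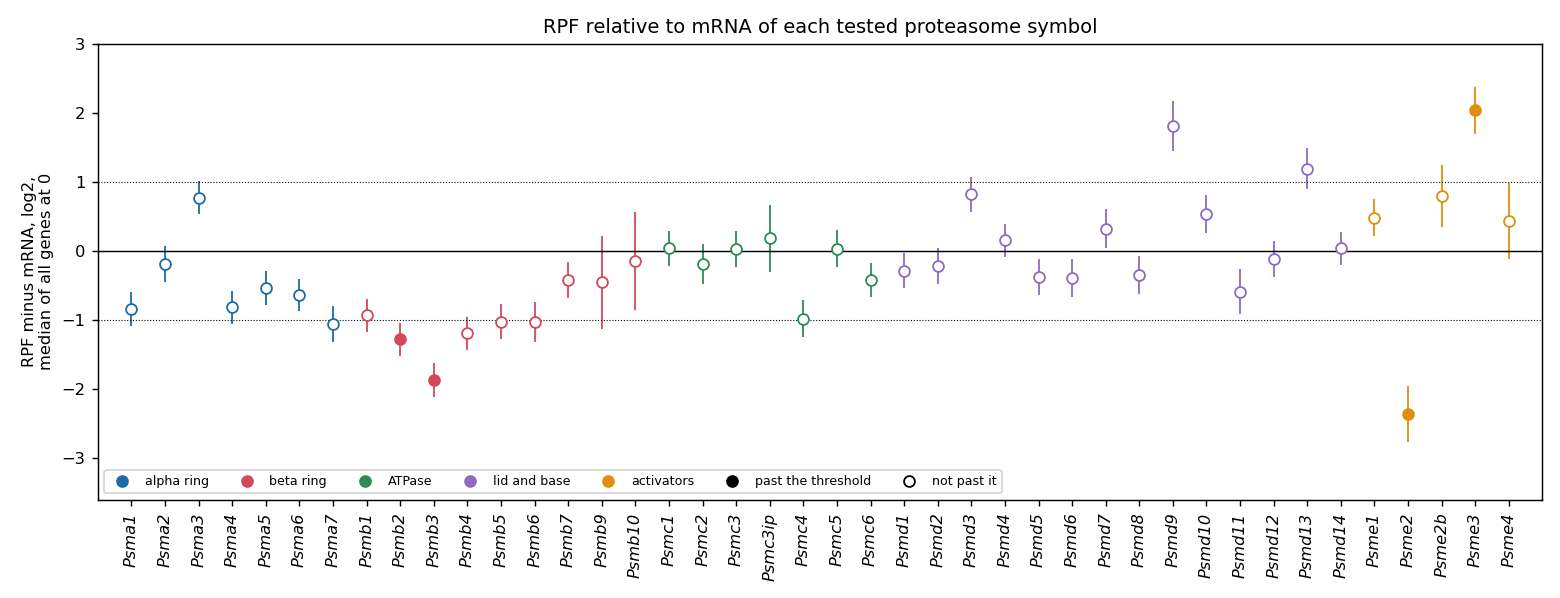
RPF minus mRNA on the log2 scale for each of the 42 tested symbols, with the median of all genes at 0, bars of 1 SE from the limma fit over 2 libraries per assay, and dotted lines at the threshold of 1 in size. Filled points mark Psme3 above and Psmb2, Psmb3, and Psme2 below, and 13 of 14 core genes lie under 0, a sign that turns for most of them without the centring.

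The calls rest on few libraries. Without RNA-seq replicate 1 or without RNA-seq replicate 2, limma called 0 members and 0 of all genes, with 5 and 4 members at an unadjusted p under 0.05, while without Ribo-seq replicate 1 or 2 the fit called 2 and 3 members higher and 8 and 9 lower. Cufflinks shortens short coding sequences by the fragment length it assumes, and with RPF set to the full coding length all 4 called members were still called, while the gap of the core to the ATPases was -1.01 in place of -0.80.

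The bases around the start codon are shown for the called members, for Psme2b, and for the catalytic subunits other than Psmb5, which has no start among those matched, since ribosomes commonly favour a purine 3 bases before the ATG and a G right after it. They come from GENCODE vM1 on NCBIM37, on the strand of each gene, with the start codon in capitals.
Psme3: ctggccATGg
Psme2: ggaagcATGg
Psme2b: ggaagcATGg
Psmb2: ggcaccATGg
Psmb3: gcaatcATGt
Psmb6: aggaagATGg
Psmb9: gctgagATGc
Psmb7: ggcaagATGg
Psmb10: tgcgagATGc
Psmb8: gtggtcATGg
All of these have the purine 3 bases before the ATG. Both Psme3, called higher, and Psme2 and Psmb2, called lower, have the G after the ATG as well, and Psmb3 does not. Psme2 and Psme2b are identical over these bases. Of the 44 members with such a start, 41 (93.2%) had the purine, against 85.1% of 17649 genes, and 23 (52.3%) had both features, against 42.3%.

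Promoters are shown because the core genes were high together. RefSeq promoters (GRCm38.p6) matched 38 of the 45 symbols, and the 250 bases before the start were searched on both strands for TGACNNNGC, the core of the antioxidant response element, for the core of the interferon-stimulated response element (ISRE, a pair of GAAA blocks with NN between them), and for CCAAT. These are the stretches of Psmb5 (chr14:54618009-54618067, minus strand), Psmb6 (chr11:70525323-70525356, plus strand), and Psmb3 (chr11:97703246-97703305, plus strand), with the match in capitals.
Psmb5: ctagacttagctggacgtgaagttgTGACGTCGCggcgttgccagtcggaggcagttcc
Psmb6: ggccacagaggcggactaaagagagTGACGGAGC
Psmb3: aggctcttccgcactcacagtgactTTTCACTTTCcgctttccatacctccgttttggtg
Psmb5 and Psmb6 hold TGACNNNGC on the gene strand, and Psmb3 holds the ISRE core on the other strand. TGACNNNGC was in 5 of 38 members (13.2%), against 12.3% of all genes in both assays, and the ISRE core was in 3 (7.89%), against 3.51%. CCAAT was in 15 (39.5%), against 39.4%. Of the 11 core genes with a promoter, 2 (18.2%) held TGACNNNGC, 1 (9.09%) the ISRE core, and 6 (54.5%) CCAAT. The stretches above are those of the core genes with TGACNNNGC or the ISRE core. None of the promoters of Psmb8, Psmb9, and Psmb10 held TGACNNNGC or the ISRE core in this window. A match is a description of letters and not a bound site.

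The genes that build, control, and feed the proteasome were read from the same fit, which called 9.13% of all genes higher and 3.24% lower and put 2986 of 8327 at an unadjusted p under 0.05. Of 12 assembly and associated factors, limma called 1 higher and 0 lower, and 6 had an unadjusted p under 0.05, 3 of them with a negative difference. The gene called was Sem1, a small lid protein, with 671 and 606 FPKM of mRNA and 4920 and 5019 FPKM of RPF, a difference of 1.70 (limma adjusted p = 0.0313). Its coding sequence has only 210 bases, and with RPF set to that full length its difference turned to -0.53. Pomp, the chaperone that matures the core, had 299 and 274 FPKM of mRNA and 892 and 1080 FPKM of RPF. Ecpas, which tethers the proteasome, had the lowest mean RPF of this list, at 12.6 and 12.2 FPKM.

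Of 4 genes that control proteasome genes, Nfe2l1, the factor that raises their transcription when proteasomes fail, was called higher, with 3.15 and 4.81 FPKM of mRNA and 40.1 and 37.2 FPKM of RPF (difference 1.75, limma adjusted p = 0.0418). Ddi2, the protease that activates it, had 3.63 and 8.02 FPKM of mRNA and 37.5 and 74.4 FPKM of RPF, and Ngly1, its deglycosylase, had the lowest mean RPF of the 4, at 11.0 and 8.50 FPKM.

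Of 14 ubiquitin and shuttling genes, 3 were called higher and 2 lower, and 11 had an unadjusted p under 0.05. Among the higher ones were the shuttle factors Rad23b (difference 2.86, limma adjusted p = 0.0225) and Ubqln2 (2.80, adjusted p = 0.0181). Among the lower ones was Rps27a (-2.50, adjusted p = 0.0199), which encodes ubiquitin fused to a ribosomal protein. Ubb, a polyubiquitin gene, had the highest RPF of the list, at 3589 and 3953 FPKM, and Ubqln4 the lowest mean, at 7.06 and 15.6 FPKM. Of the 5 antigen presentation genes tested, limma called 0, and 2 had an unadjusted p under 0.05.

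The core genes differed little between replicates, whereas members of few footprints differed more, up to a size of 1.90 among the 42 tested, on the log2 scale, for the RPF of Psmb10. In RNA-seq, 33 of 42 members and all 14 core genes were higher in replicate 2, against 53.4% of all genes, with a median shift of 0.14 on the log2 scale over the core. In Ribo-seq, 14 of 42 members and 6 of 14 core genes were higher in replicate 2, against 46% of all genes. The core genes thus moved together between RNA-seq replicates by a small amount, and the gaps between core and 19S described above were present in each library.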

How the data were processed

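The 2 RNA-seq and 2 Ribo-seq blastocyst libraries were grouped by their titles. The authors trimmed reads (Trim Galore 0.4.2, cutadapt 1.14), discarded rRNA reads of Ribo-seq (Bowtie2 2.2.2), mapped to mm9 transcripts (STAR 2.5.3a, up to 20 places per read), and deposited FPKM from Cufflinks 2.2.1, for whole transcripts in RNA-seq and for coding regions in Ribo-seq.

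Where a symbol had several rows the highest value was kept, which touched no member. RPF minus mRNA was fitted with limma 3.58.1 (R 4.3.3) on log2(FPKM+1), which understates the change of low genes. Other steps used Python 3.11.15, numpy 2.4.6, pandas 2.3.3, and scipy 1.17.1, and the fit and the depth estimate were tested on simulated data. Implied fragments used Cufflinks' default fragment length (mean 200, SD 80). Within 0.1 of a whole fragment were 64.0% and 63.2% of RNA-seq and 86.6% and 87.3% of Ribo-seq values tested, where chance gives 20%. Symbols were matched to GENCODE vM1 by name (18233 of 20714) or RefSeq synonym (1782).

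The rule for members uses names alone, but members and lists were chosen with earlier results of these data known. The text names all activators, catalytic subunits, base chaperones, and tissue-restricted or non-subunit symbols, Psmd4, Psmd14, the highest and lowest of each class in each assay, members past the threshold, the 3 largest and 3 smallest differences, and, of other lists, the genes past the threshold and those with the highest and lowest RPF, except some that are not reported here. Psma3, Psma5, Psmb4, Psmc2, Psmc4, Psmd1, Psmd2, Psmd3, Psmd12, Tap1, Irf1, H2-K1, H2-D1, Pomp, Cd68, Gata6, Sox17, and Gata4 were named after their values were seen. Sem1 and Ecpas were matched under their current symbols. Same-numbered replicates did not deviate together (r = 0.0099 over 8327 genes).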

Additional observations from a re-analysis of the deposited data

How the results depend on the processing

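The counts of called members (1 higher, 3 lower) moved with the setting, and the cause was not tested. They were 0 and 1 with a pseudocount of 0.1, 5 higher with no filter on low values, 3 and 8 with a minimum of 10 FPKM, 18 and 0 with no centring, 12 lower with quantile normalization, and 3 and 7 with a prior variance that follows the mean level. Under the same settings the genes of the wider lists (5 higher and 2 lower) gave 2 and 1 with the pseudocount, 13 and 1 with no filter, 5 lower with the minimum of 10 FPKM, 19 and 1 with no centring, 5 lower with quantile normalization, and 8 and 4 with the other prior variance. With each library left out in turn, the counts lay between 0 and 3 higher and between 0 and 9 lower for members, and between 0 and 8 higher and 0 and 7 lower for the wider lists, where a lone library is assumed to vary like the others. Without either RNA-seq replicate limma called 0 genes, with 1317 and 1260 at an unadjusted p under 0.05.

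The replicate numbers are shared by label alone. With the number as a replicate block, 0 members and 0 genes of the wider lists were called (27 genes higher and 1 lower over all), with 11 members at an unadjusted p under 0.05. With 2 pairs, no best match of each sample can be read.

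Without centring, 23 of the 26 members below 0 changed to above 0, of which 4 were called higher, namely Psma2 (1.07), Psmc2 (1.07), Psmd2 (1.04), and Psmd12 (1.15), and with RPF set to the full coding length Sem1 changed to -0.53. That length gave median RPF levels of 368, 307, 257, and 149 FPKM for the alpha ring, beta ring, ATPase, and lid and base classes. Without the members under 1 FPKM in both assays the beta ring had a median mRNA of 398 FPKM, and with a pseudocount of 0.1 Psmb10 minus Psmb7 was -6.68 for mRNA. Psme3 stayed above 0 and Psme2, Psmb2, and Psmb3 below it in all 13 alternatives, and 9, 8, 7, and 9 of these called them. The other prior variance, the replicate block, and summing the rows of a symbol leave the differences of these members nearly unchanged, so no sign could turn there. Without centring Psmb2 was close to the line, at -0.02 (limma adjusted p = 0.96). The Ribo-seq depth limits members of a few footprints, namely Psmb8, Psmb10, Psma8, Psme2, and Psme2b.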
